A study of Mus musculus with 64 samples.

Results

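The genes described here encode 7 subunits of the GABA-A receptor: Gabra2, Gabra3, Gabra4 and Gabra5 (alpha subunits), Gabrb1 and Gabrb2 (beta subunits), and Gabrd (the delta subunit). They were taken by name from the receptor family. All 7 were among the 18432 genes of the expression table and all passed the filter on low values in each comparison. The table held 8 further genes of this family. RNA was sequenced from the hippocampus and the frontal cortex (cortex below). The mice were knock-in (KI) animals of the genotype Cyfip2 +/R87C, which carry an arginine-to-cysteine change in 1 of their copies of Cyfip2 in every cell, and wild-type (WT) littermates. All mice were on the C57BL/6N background and no agent was given. The samples were taken at postnatal week (PWK) 1, 7, 14 and 28. Each of the 16 groups of region, age and genotype held 4 libraries, 64 in all. As a model, this is a heterozygous change of the germ line, the tissue is a mixture of cell types, and the groups of different ages are different mice. Gene-level values cannot show the point mutation.

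GABA-A receptors are chloride channels of 5 subunits that open when GABA binds, and they carry most of the fast inhibition in the adult brain. The alpha and beta subunits form the GABA binding site between them. A gamma subunit helps to hold receptors at synapses, while receptors with the delta subunit, often paired with alpha 4, sit mostly outside synapses and give a lasting, tonic inhibition. Receptors with alpha 5 are abundant in the hippocampus, are also largely extrasynaptic and are known for their part in learning. The alpha composition shifts during postnatal development and also sets the sensitivity to benzodiazepines, which act on receptors with alpha 2, alpha 3 or alpha 5 but not on those with alpha 4.

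In GENCODE vM21 on GRCm38, 3 of the genes lie together on chromosome 5, where Gabra2 (70957597 to 71095849, minus strand) is followed by Gabra4 (71569749 to 71658308, minus strand) and Gabrb1 (71658113 to 72149037, plus strand). Gabra4 and Gabrb1 are transcribed away from each other and overlap by 196 bases at their starts. Gabrb1 also overlaps the antisense gene Gm38562 of the opposite strand, by 19557 bases. Gabra5 is on chromosome 7 (57407672 to 57510059, minus strand), where it overlaps the antisense gene Gm9962 and part of a coding gene of the opposite strand. Gabra3 is on chromosome X (72432681 to 72656848, minus strand), Gabrb2 on chromosome 11 (42419757 to 42629028, plus strand) and Gabrd on chromosome 4 (155384980 to 155398112, minus strand). Overlapping genes of opposite strands share bases, and the strand setting of the quantification is not given in the sources used here. RefSeq promoter windows on GRCm38.p6 were at hand for 6 of the 7 genes and not for Gabrd. The following stretches lie before the start sites of the 4 alpha genes and outside annotated exons. They are shown because they differ in content of CpG dinucleotides, which are in capitals. Whether this content relates to the patterns over region and age described below was not tested. They run 5′ to 3′ on the gene's own strand, at chr5:71095850-71096099 for Gabra2, chrX:72656920-72657169 for Gabra3, chr5:71658364-71658558 for Gabra4 and chr7:57510060-57510309 for Gabra5.
Gabra2: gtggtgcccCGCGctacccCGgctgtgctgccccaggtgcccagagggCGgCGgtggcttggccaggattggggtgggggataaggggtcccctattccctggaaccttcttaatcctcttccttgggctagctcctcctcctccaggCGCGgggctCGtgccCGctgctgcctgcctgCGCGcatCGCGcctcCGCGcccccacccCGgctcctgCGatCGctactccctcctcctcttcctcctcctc
Gabra3: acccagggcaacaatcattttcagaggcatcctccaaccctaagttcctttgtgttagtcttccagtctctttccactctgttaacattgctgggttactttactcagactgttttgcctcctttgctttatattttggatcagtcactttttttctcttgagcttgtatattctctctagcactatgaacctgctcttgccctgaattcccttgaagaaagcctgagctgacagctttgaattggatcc
Gabra4: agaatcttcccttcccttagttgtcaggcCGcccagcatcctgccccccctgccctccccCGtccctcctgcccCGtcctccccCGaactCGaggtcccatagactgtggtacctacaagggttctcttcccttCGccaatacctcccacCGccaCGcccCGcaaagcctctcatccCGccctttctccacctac
Gabra5: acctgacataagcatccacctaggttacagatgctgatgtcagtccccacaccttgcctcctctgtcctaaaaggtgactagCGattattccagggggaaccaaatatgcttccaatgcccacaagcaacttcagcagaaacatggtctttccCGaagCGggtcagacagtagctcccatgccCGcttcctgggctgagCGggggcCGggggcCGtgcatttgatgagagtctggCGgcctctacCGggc

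The Gabra2 stretch of 250 bases held 18 CpG and the Gabra3 stretch of equal length held 0. The Gabra5 stretch held 9 in 250 bases and the Gabra4 stretch 10 in 195 bases, and the median over the 250 bases before the start in all 32851 windows was 6. On either strand, the cyclic AMP response element TGACGTCA, the EGR motif GCGTGGGCG and the AP-1 motif TGANTCA had no match in the windows of these 6 genes, from 250 bases before to 50 bases after the start. These motifs occurred in 1.79%, 0.612% and 7.81% of all windows. TATAAA, found on either strand in 13.6% of all windows, matched 30 bases upstream of the RefSeq Gabrb2 start at 42420440. The windows of the other Gabrb2 starts held no match. The reverse complement TTTATA matched at a single site before Gabra3, which lies 123 and 235 bases upstream of the 2 Gabra3 starts. A match or its lack describes letters only.

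The deposited values are estimated counts that the authors normalized with DESeq2, called normalized counts here. They summed to between 29.2 and 32.6 M per library, and read depth is not known after this scaling, so precision was read from the 4 libraries of a group. The labelled tissues carried their markers: the summed level of 5 dentate granule cell markers was between 5511 and 13166 in hippocampal libraries and between 539 and 884 in cortical ones, and that of 5 cortical projection neuron markers was at least 10684 in cortex and at most 7956 in hippocampus. The KI hippocampus at PWK 14 held a library that stood apart, replicate 1, with a summed level of 5 astrocyte markers of 192957, while its other 3 KI libraries were between 73320 and 84270 and the WT libraries between 41003 and 45257. In the KI cortex at PWK 28, replicate 2 was nearer to WT than the other KI libraries in several values given below. The genotype calls and list counts of the 2 comparisons that hold these libraries were also computed without them, and each call that changed among the genes described below is given. Over all genes, 17.4% were then called in the hippocampus at PWK 14 and 27.7% in the cortex at PWK 28. Leaving out the KI library nearest to WT widens a difference in any case, so values obtained that way are a description and no support. Fold changes below are differences in log2(normalized count + 1) from limma, and a gene was called at an adjusted p under 0.05. The share of all genes whose libraries do not overlap between 2 groups was not computed. A lack of overlap therefore only describes the gene named.

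In WT mice the subunit genes had different courses of age. Gabra5 was at 4829 ± 405 (SD, n = 4) normalized counts in the cortex at PWK 1 and at 1735 ± 82.5 at PWK 7, a log2 change of -1.47 ± 0.063 (SE; limma, adjusted p = 2.02e-09). In the hippocampus it was at 6683 ± 141 and 6213 ± 329 at these ages, a change of -0.11 ± 0.043 (limma, adjusted p = 0.0491). Gabrd went the other way in both regions, from 578 ± 83.1 to 1825 ± 185 in the cortex (1.66 ± 0.10, limma, adjusted p = 4.61e-08) and from 210 ± 41.5 to 651 ± 19.8 in the hippocampus (1.65 ± 0.12, limma, adjusted p = 4.68e-07). The groups did not overlap in these changes apart from that of Gabra5 in the hippocampus. Gabra4, the usual partner of delta, also rose in the cortex (0.62 ± 0.058, limma, adjusted p = 1.43e-06) and in the hippocampus (0.88 ± 0.045, limma, adjusted p = 2.49e-08). Gabra3 rose in the cortex by 0.28 ± 0.057 (limma, adjusted p = 0.000929) and fell by 0.81 ± 0.12 in the hippocampus (limma, adjusted p = 0.000136). Gabrb1 rose in both, by 0.27 and 0.70, and Gabra2 fell by 0.22 in the cortex and by 0.14 in the hippocampus. Gabrb2 rose by 0.14 in the cortex, and its value in the hippocampus was 0.02 (limma, adjusted p = 0.815). From PWK 1 to PWK 7, 7 of the 7 genes were thus called in the cortex, where 65.3% of all genes were called, and 6 in the hippocampus, where 61.3% were. Age is confounded with any batch of collection or sequencing. The calls of Gabrb2 in the cortex and of Gabra5 in the hippocampus were lost without any of 5 and 7 of the 8 libraries, with adjusted p up to 0.116 and 0.127. A correction for GC content and transcript length took the hippocampal value of Gabra2 to -0.08 (limma, adjusted p = 0.197).

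After PWK 7 the WT levels of all 7 genes moved less in the cortex than before. In the hippocampus Gabra3, Gabra4, Gabrb1 and Gabrd moved less. Gabra5 moved more there, by -0.39 after -0.11, and Gabra2 and Gabrb2 moved about as much as before. From PWK 7 to PWK 28, 1 of the 7 genes was called in the cortex (background 22.2%), where Gabra4 fell by 0.26 ± 0.053 (limma, adjusted p = 0.0052), and 6 were called in the hippocampus (background 14.7%). Gabra5 fell there by 0.39 ± 0.054 (limma, adjusted p = 0.00161), from 6213 ± 329 to 4743 ± 316, with no overlap between the ages. Gabra4 fell by 0.29, Gabrd by 0.22, Gabra2 by 0.16 and Gabrb1 by 0.15, and Gabra3 rose by 0.43. In the cortex, leaving out WT replicate 2 of PWK 7 brought Gabrd past the threshold (-0.23, limma, adjusted p = 0.0358), for 2 calls. In the hippocampus the calls of Gabra4 and Gabra5 held whichever library was left out, but the others did not. The hippocampal count fell to 2 without WT replicate 3 of PWK 28 and to 3 without replicate 1 or 4 of PWK 28 or replicate 1, 2 or 4 of PWK 7.

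**Figure D1:**
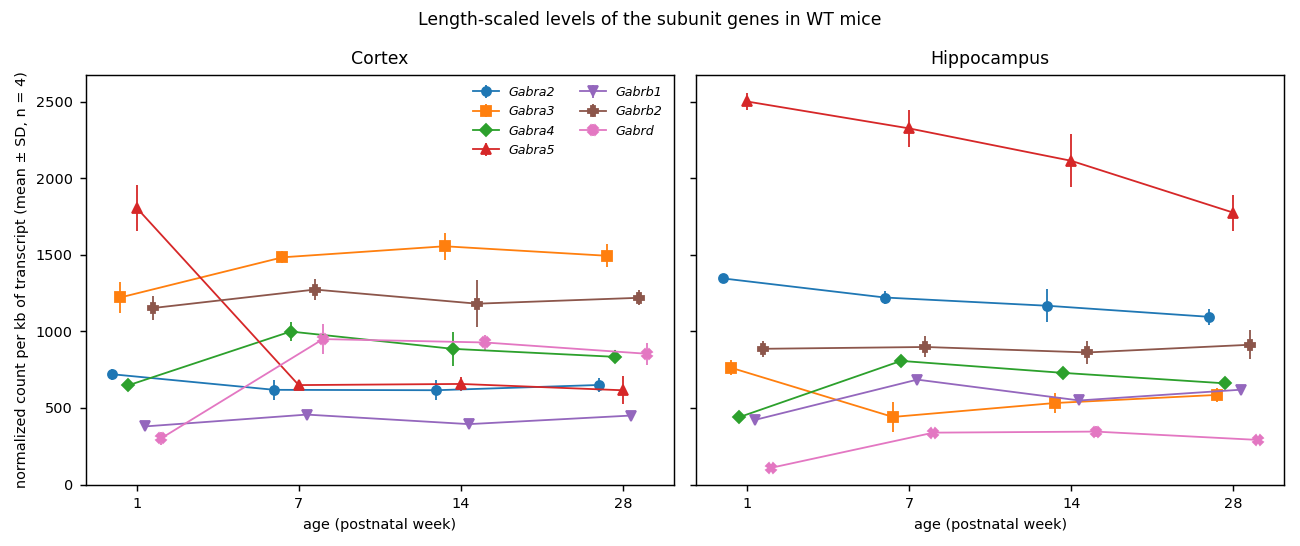
Normalized count per kb of the longest coding transcript (y axis; mean ± SD over 4 WT libraries) of the 7 subunit genes against age in postnatal weeks (x axis, ages evenly spaced), in cortex (left) and hippocampus (right). Gabra5 has the highest level in the hippocampus at every age and in the cortex at PWK 1 only, and Gabra3 has the highest cortical level from PWK 7 on.

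Since longer transcripts give more reads, levels of different genes were compared per kb of the longest coding transcript. In the WT cortex at PWK 1, Gabra5 was the highest of the 7 at 1808 normalized counts per kb, and Gabrd the lowest at 301. At PWK 28 the order in the cortex was Gabra3 (1494 per kb), Gabrb2 (1220), Gabrd (854), Gabra4 (834), Gabra2 (650), Gabra5 (616) and Gabrb1 (451). In the WT hippocampus at PWK 28 the order was Gabra5 (1776 per kb), Gabra2 (1096), Gabrb2 (913), Gabra4 (661), Gabrb1 (620), Gabra3 (585) and Gabrd (291). Of the summed length-scaled level of the 7 genes in the hippocampus, Gabra5 held 38.7% at PWK 1 and 29.9% at PWK 28, whereas in the cortex it held 29.0% at PWK 1, and Gabrd, at 14.0%, held more than Gabra5 there at PWK 28. Scaled to merged exons in place of the transcript, Gabra5 remained the highest in the hippocampus at each age, but Gabrb1 moved from rank 5 to rank 3 there at PWK 28.

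All 7 genes differed between the WT hippocampus and cortex at each age, where 34.7%, 40.8%, 34.6% and 37.8% of all genes were called at PWK 1, 7, 14 and 28. Gabra2 (0.75 to 0.99), Gabra5 (0.47 to 1.84) and Gabrb1 (0.16 to 0.59) were higher in the hippocampus by these log2 differences. Gabra3 (-1.77 to -0.68), Gabrd (-1.55 to -1.43), Gabra4 (-0.56 to -0.27) and Gabrb2 (-0.50 to -0.38) were lower there. The difference of Gabra5 was smallest at PWK 1 and that of Gabrd hardly varied with age. At PWK 28 the Gabra5 libraries were at 1334, 1559, 1842 and 1844 in the cortex and at 4742, 5179, 4439 and 4613 in the hippocampus, where each was above all cortical libraries (1.54 ± 0.095, limma, adjusted p = 1.8e-07). The Gabrd libraries were at 1736, 1776, 1507 and 1542 in the cortex and at 535, 581, 545 and 579 in the hippocampus (-1.55 ± 0.065, limma, adjusted p = 8.99e-09). The Gabrb1 difference at PWK 1 was the exception in strength, since its adjusted p of 0.0324 by limma rose to as much as 0.0984 when a library was left out, and the call held only without cortical replicate 3 or hippocampal replicate 1. With the GC and length correction that difference was 0.08 (limma, adjusted p = 0.296).

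The order of the 8 WT groups also differed between the genes. For Gabra2 the 4 hippocampal groups stood first and for Gabra3 and Gabrb2 the 4 cortical groups did. For Gabra5 the hippocampus at PWK 1, 7 and 14 (6683 ± 141, 6213 ± 329 and 5648 ± 460) was followed by the cortex at PWK 1, which overlapped the hippocampus at PWK 28, and by the other 3 cortical groups, which overlapped each other between 1645 ± 247 and 1755 ± 119. For Gabrd the cortex at PWK 7, 14 and 28 stood first (1825 ± 185, 1782 ± 88.8 and 1640 ± 135, each overlapping the next), and the hippocampus at PWK 1 stood last. Gabra4 was highest in the cortex at PWK 7 (4106 ± 257) and Gabrb1 in the hippocampus at PWK 7 (9414 ± 150), the latter without overlap with the group that came next.

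**Figure D2:**
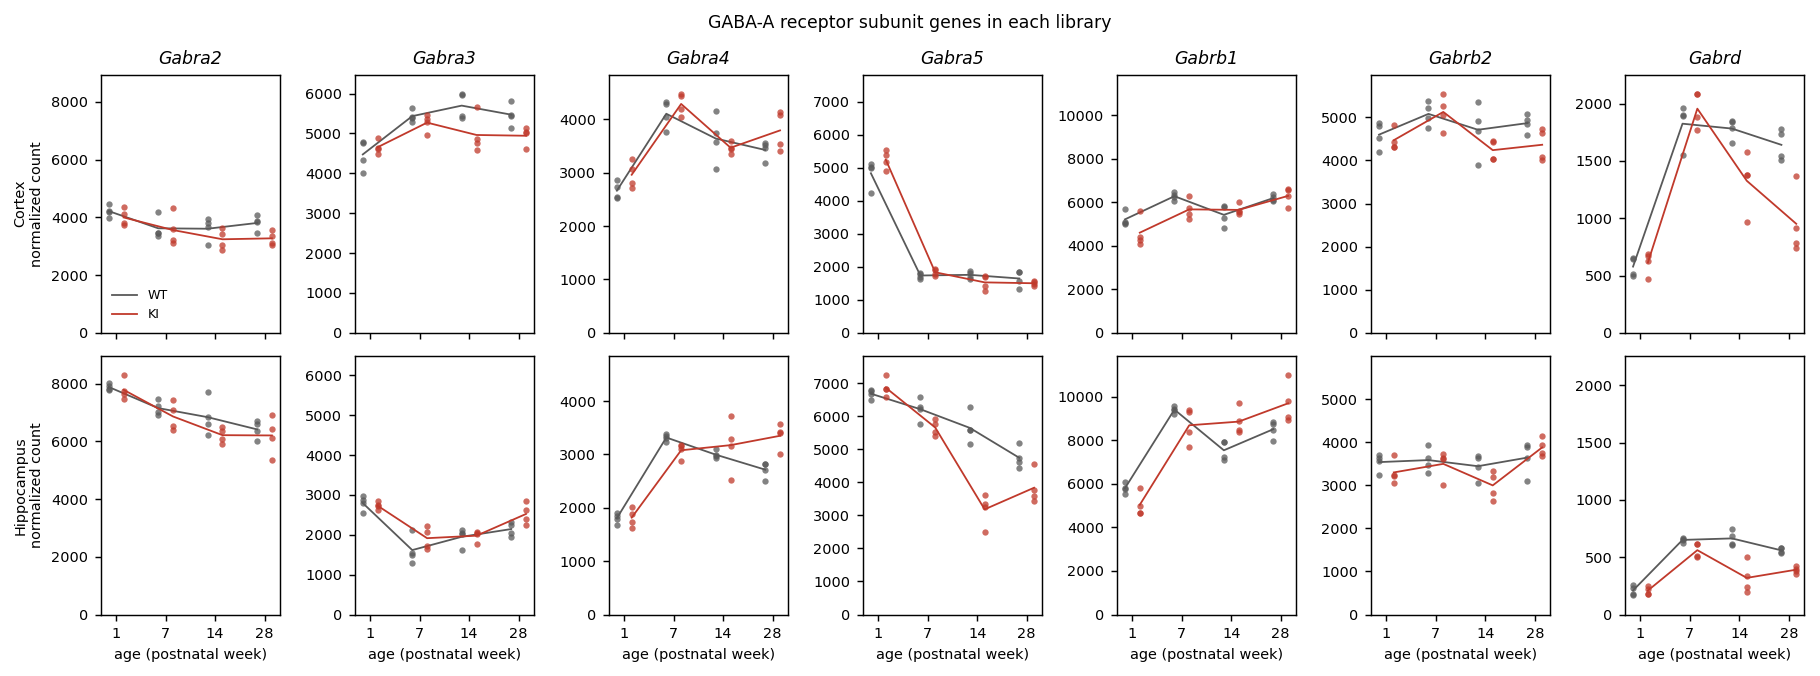
Normalized counts (y axis, from 0) of each subunit gene in every library against age in postnatal weeks (x axis, ages evenly spaced), in cortex (top) and hippocampus (bottom); points are libraries, grey WT and red KI, and lines join group means. The KI and WT libraries of Gabrd separate at PWK 14 and 28 in both regions and narrowly in the hippocampus at PWK 7. Those of Gabra5 separate in the hippocampus at PWK 14. Also apart are Gabra4 at PWK 7 and 28 and Gabrb1 at PWK 14 and 28 in the hippocampus, and Gabra3 at PWK 28 in the cortex. The share of all genes that separate was not computed.

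The genotypes were then compared within each region and age. At PWK 1 and PWK 7, 0 of the 7 genes were called by limma. Few genes of any kind were called there: 0.00546% in the cortex and 0.0109% in the hippocampus at PWK 1, and 0.00545% and 0.0218% at PWK 7. Over all genes, 965 of 18311 in the cortex and 1003 of 18361 in the hippocampus had an unadjusted p under 0.05 at PWK 1. At PWK 7 these were 1477 of 18358 and 1144 of 18390. At an unadjusted p under 0.05 there was 1 of the 7 genes in the cortex at each of these ages (Gabra4 at PWK 1, 0.15, and Gabrb1 at PWK 7, -0.15), 1 in the hippocampus at PWK 1 (Gabrb1, log2 fold change -0.21) and 3 in the hippocampus at PWK 7 (Gabra4, Gabra5 and Gabrd, with -0.11, -0.13 and -0.22). In the last comparison the KI libraries of Gabra4 and Gabrd lay below the WT libraries, for Gabrd at 499 to 620 against 624 to 672. Neither gene was called there, and the share of all genes separated in this way was not computed. At PWK 14, 0 of the 7 were called in the cortex (background 5.18%) and 3 in the hippocampus (15.6%). Gabra3 and Gabrd had an unadjusted p under 0.05 in the cortex, as did 3786 of 18367 genes in all. At PWK 28, 2 were called in the cortex (22.2%) and 3 in the hippocampus (15.8%). The median log2 fold change of the 7 was -0.15 in the cortex at both PWK 14 and PWK 28, and in the hippocampus -0.13 at PWK 14 and 0.10 at PWK 28, beside medians over all genes of -0.0018, -0.0034, 0.0060 and 0.0037.

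**Figure D3:**
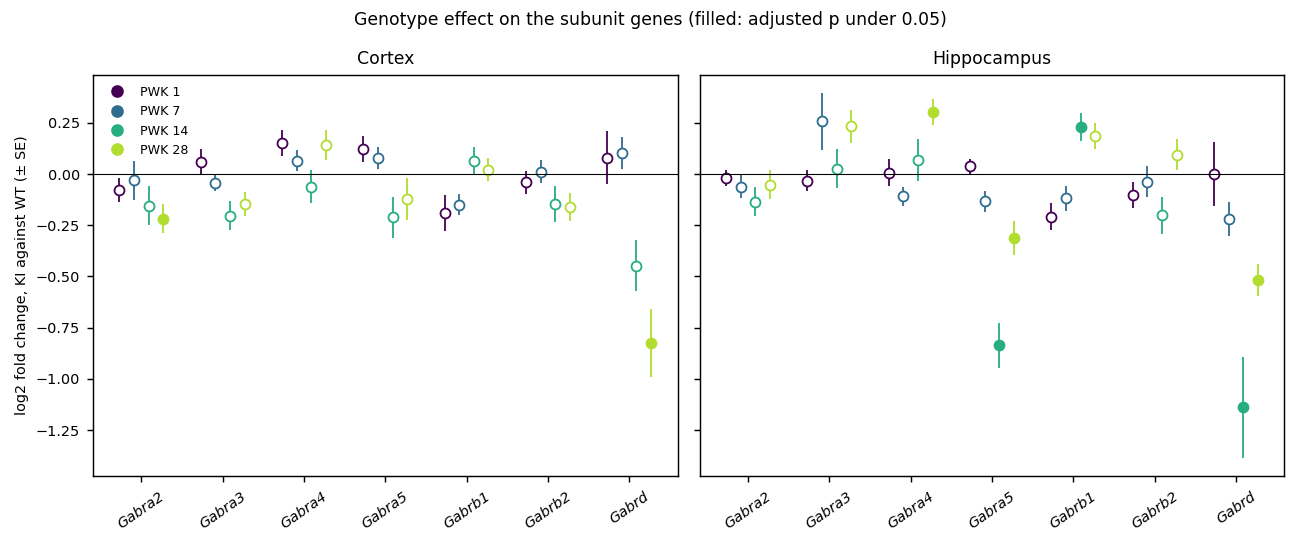
Log2 fold change of KI against WT (y axis; point ± SE from limma, 4 against 4 libraries) of the 7 subunit genes (x axis) at each age (colour) in cortex (left) and hippocampus (right); filled points had an adjusted p under 0.05. Gabrd lies lowest, at -0.83 in the cortex at PWK 28 and -1.14 in the hippocampus at PWK 14, and Gabra4 and Gabrb1 have filled points above 0 in the hippocampus.

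Gabrd, the delta subunit of extrasynaptic receptors, had the largest genotype difference of the 7 genes at PWK 14 and 28 in both regions. In the hippocampus at PWK 14 it was at 614, 683, 610 and 750 normalized counts in WT mice and at 199, 335, 240 and 505 in KI mice, so that the highest KI library was below the lowest WT library. The WT and KI means were 664 ± 66.4 and 320 ± 136, a change of -51.9%, and the log2 fold change was -1.14 ± 0.25 (limma, adjusted p = 0.0157). Without KI replicate 1, the library with the high astrocyte markers, it was -0.94 (limma, adjusted p = 0.0141), and without WT replicate 4, the highest of its group, it was -1.08 and no longer called (limma, adjusted p = 0.0509). At PWK 28 the WT libraries were at 535, 581, 545 and 579 and the KI libraries at 428, 380, 401 and 358. These KI values lay closer together, and the change was -30.1% (-0.52 ± 0.077, limma, adjusted p = 0.00143). This call held whichever library was left out.

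In the cortex at PWK 28, Gabrd was at 1736, 1776, 1507 and 1542 in WT mice and at 912, 1372, 737 and 785 in KI mice. No libraries overlapped, and the KI mean differed by -42.0% (-0.83 ± 0.17, limma, adjusted p = 0.00642). Replicate 2 was the highest KI library and the nearest to WT, so leaving it out widened the log2 fold change, to -1.02 (limma, adjusted p = 6.01e-05). At PWK 14 the WT libraries were at 1787, 1848, 1655 and 1839 and the KI libraries at 969, 1381, 1379 and 1578. These did not overlap either, but the difference of -0.45 ± 0.12 was not called (limma, adjusted p = 0.0652). Without KI replicate 1 or 4 it was called, with an adjusted p by limma down to 0.0301. Gabra3 in this comparison (-0.20 ± 0.072, limma, adjusted p = 0.136) was called without KI replicate 3 (-0.27, limma, adjusted p = 0.036).

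Gabra5 differed between genotypes in the hippocampus. At PWK 14 the WT libraries were at 5584, 5590, 5152 and 6267 normalized counts and the KI libraries at 2509, 3350, 3616 and 3257. The groups were far apart and the KI mean differed by -43.6% (3183 ± 475 against 5648 ± 460; -0.84 ± 0.11, limma, adjusted p = 0.00204). KI replicate 1 was the lowest library, and without it the log2 fold change was -0.73 (limma, adjusted p = 0.00038). At PWK 28 the WT libraries were at 4742, 5179, 4439 and 4613 and the KI libraries at 3450, 3761, 4555 and 3583. KI replicate 3 lay within the WT range, and the change was -19.1% (-0.31 ± 0.082, limma, adjusted p = 0.0254). This call was lost without any of KI replicates 1, 2 and 4 or WT replicates 1, 2 and 4, with adjusted p up to 0.0714 by limma. In the cortex, where the gene is low after PWK 1, Gabra5 was at 1755 ± 119 in WT and 1527 ± 225 in KI mice at PWK 14 (-0.21 ± 0.10, limma, adjusted p = 0.265) and at 1645 ± 247 and 1500 ± 75.5 at PWK 28 (-0.12 ± 0.10, limma, adjusted p = 0.431), with overlapping libraries.

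Gabra4 and Gabrb1, which share their start region on chromosome 5, were each called higher in the KI hippocampus at 1 age. Gabra4 at PWK 28 was at 2826, 2824, 2493 and 2717 in WT mice and at 3421, 3393, 3578 and 3007 in KI mice, without overlap and with a mean 23.4% higher (0.30 ± 0.063, limma, adjusted p = 0.00831). The call held whichever library was left out. At PWK 14 its KI libraries spread from 2526 to 3723 around the WT range of 2939 to 3094 (0.07 ± 0.10, limma, adjusted p = 0.685). The lowest value was that of KI replicate 1, the library that stood apart, and the other 3, at 3166, 3723 and 3283, were above the WT range. Without it the log2 fold change was 0.18 (limma, adjusted p = 0.0932). Gabrb1 at PWK 14 was at 7913, 7093, 7915 and 7256 in WT mice and at 8459, 9734, 8886 and 8368 in KI mice. All KI libraries were above all WT libraries, and the mean was 17.5% higher (0.23 ± 0.068, limma, adjusted p = 0.0474). At PWK 28 its KI libraries, 9085, 10986, 8928 and 9813, were again above the WT libraries, 8855, 8743, 7965 and 8491, but the difference was not called (0.18 ± 0.065, limma, adjusted p = 0.0788), except with the GC and length correction (0.25, limma, adjusted p = 0.0167). The PWK 14 call of Gabrb1 was lost without KI replicate 2 or 3 or any WT library, with adjusted p up to 0.130 by limma.

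Gabra2 was called in the cortex at PWK 28. Its WT libraries were at 3857, 3449, 4072 and 3843 and its KI libraries at 3117, 3053, 3578 and 3342. The ranges overlapped between 3449 and 3578, and the KI mean differed by -14.0% (-0.22 ± 0.070, limma, adjusted p = 0.0475). The call was lost without KI replicate 1, 2 or 4 or WT replicate 1, 3 or 4, with adjusted p up to 0.134 by limma, which lowered the count of called genes in that comparison from 2 to 1. It was also lost with sample quality weights (-0.20, limma, adjusted p = 0.0556), and the GC and length correction took the value to -0.14 (limma, adjusted p = 0.184). Gabra3 at the same age was at 5147, 5445, 5827 and 5471 in WT and at 4604, 5138, 5027 and 5005 in KI cortex (-0.15 ± 0.057, limma, adjusted p = 0.0929), and at 2333, 2048, 1952 and 2243 in WT and 2390, 2612, 2238 and 2848 in KI hippocampus (0.23 ± 0.080, limma, adjusted p = 0.0748). In the hippocampus at PWK 28, leaving out KI replicate 3 brought Gabra3 and Gabrb1 past the threshold, so that 5 genes were called, and leaving out the libraries named for Gabra5 left 2. Gabrb2, the beta subunit common in adult synaptic receptors, was not called in any genotype comparison, with log2 fold changes between -0.20 and 0.10, although sample quality weights called it in the cortex at PWK 28 (-0.19, limma, adjusted p = 0.0469) and the fit of all 64 libraries in the hippocampus at PWK 14 (-0.20, limma, adjusted p = 0.0483).

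Whether the genotype effect differed between regions or ages was tested as an interaction. At PWK 14 the effect on Gabra5 was lower in the hippocampus than in the cortex by 0.63 on the log2 scale (-0.63 ± 0.16, limma, adjusted p = 0.0444), and this was the sole call of the 7 (background 2.85%). It was -0.52 without the hippocampal KI replicate 1 (limma, adjusted p = 0.0452) and lost its call without any of 10 of the 16 libraries, namely each cortical library but KI replicate 4, and hippocampal WT replicates 1, 2 and 4, with adjusted p up to 0.0901 by limma. At PWK 28 Gabra3 was the sole call (0.38 ± 0.10, limma, adjusted p = 0.0433; background 4.57%), with a lower KI level in the cortex and a higher one in the hippocampus, and it was called in 4 of the 16 fits that left out a library, those without cortical KI replicate 2 or WT replicate 1 or hippocampal KI replicate 3 or WT replicate 1. For Gabrd the interaction with region was -0.69 ± 0.30 at PWK 14 (limma, adjusted p = 0.230) and 0.31 ± 0.20 at PWK 28 (limma, adjusted p = 0.434). Without the hippocampal KI replicate 4 the first was -0.94 (limma, adjusted p = 0.0258), and without the cortical KI replicate 2 the second was 0.50 (limma, adjusted p = 0.0142). Each was the KI library nearest to WT in Gabrd, so leaving it out widened the difference in its region.

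Between PWK 7 and PWK 14, the genotype effect in the hippocampus changed for 3 of the 7 genes (background 10.3%). These were Gabra5 (-0.70 ± 0.13, limma, adjusted p = 0.00247), Gabrb1 (0.35 ± 0.094, limma, adjusted p = 0.026) and Gabrd (-0.92 ± 0.28, limma, adjusted p = 0.0461). For Gabrb1 the KI mean was 8694 ± 806 at PWK 7 and 8862 ± 624 at PWK 14. Its WT mean was 9414 ± 150 and 7544 ± 432 at these ages and 8514 ± 396 at PWK 28, so the change lay mainly in a lower WT level at PWK 14. The Gabra5 call held whichever library was left out. Without KI replicate 1 of PWK 14, the Gabrd value was -0.72 (limma, adjusted p = 0.0563) and that of Gabra4 was called at 0.28 (limma, adjusted p = 0.0229). The count was 1 without WT replicate 2 or 4 of PWK 14 or KI replicate 3 of PWK 7, and the Gabrd call held in 2 of 16 such fits. In the cortex 0 of the 7 genes were called by limma (background 3.18%). An unadjusted p under 0.05 was held by 3 of them and by 3064 of all 18383 genes. Gabrd was at -0.55 ± 0.16 there (limma, adjusted p = 0.0703), or at -0.64 without KI replicate 4 of PWK 14 (limma, adjusted p = 0.0218). Between PWK 14 and PWK 28, 0 of the 7 genes and 0% of all genes were called in either region, while 2770 genes in the cortex and 2274 in the hippocampus, among them 0 and 3 of the 7, had an unadjusted p under 0.05. The hippocampal values of Gabra5 and Gabrd, 0.52 ± 0.15 and 0.62 ± 0.28, were thus not called (limma, adjusted p = 0.183 and 0.371). Without KI replicate 4 of PWK 14 the value of Gabrd was 0.87 (limma, adjusted p = 0.0426).

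**Figure D4:**
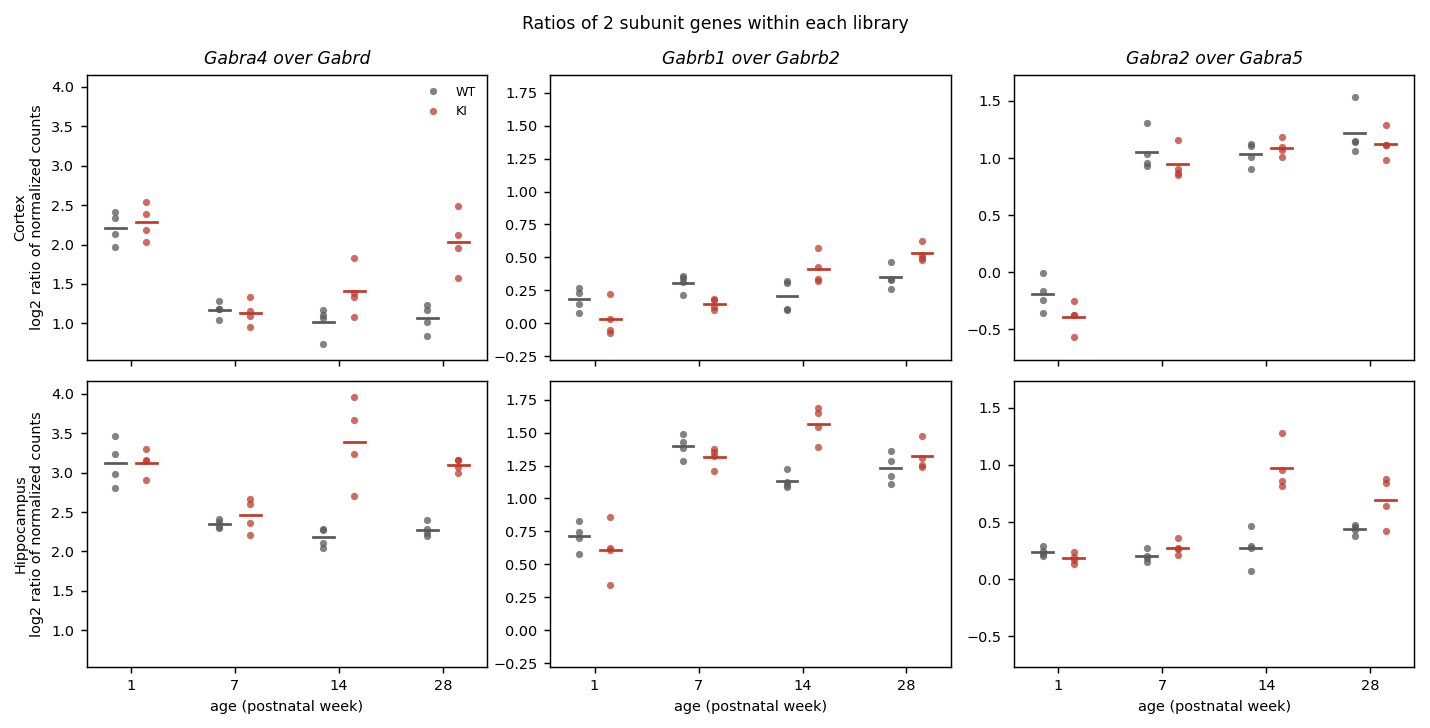
Log2 ratio of normalized counts of 2 subunit genes in each library (y axis) against age in postnatal weeks (x axis, ages evenly spaced), for Gabra4 over Gabrd, Gabrb1 over Gabrb2 and Gabra2 over Gabra5, in cortex (top) and hippocampus (bottom); points are libraries, bars are group means, grey WT and red KI. The hippocampal KI libraries lie above the WT libraries in each ratio at PWK 14.

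Ratios within a library do not depend on its scaling and are given as a description. Log2 Gabra4 over Gabrd, the usual partners, was 3.12 ± 0.29 in WT hippocampus at PWK 1, 2.18 ± 0.12 at PWK 14 and 2.28 ± 0.090 at PWK 28. In KI hippocampus it was 3.39 ± 0.54 at PWK 14 and 3.10 ± 0.077 at PWK 28, the latter with libraries between 3.00 and 3.16 against 2.19 to 2.40 in WT mice. In the cortex at PWK 28 it was 2.03 ± 0.38 in KI and 1.07 ± 0.18 in WT mice, and at PWK 14 it was 1.41 ± 0.31 and 1.02 ± 0.19 with overlapping libraries. Log2 Gabrb1 over Gabrb2 in the hippocampus at PWK 14 was 1.57 ± 0.13 in KI and 1.13 ± 0.060 in WT mice, without overlap, whereas at PWK 28 it was 1.32 ± 0.11 and 1.23 ± 0.11 with overlapping libraries. In the cortex the KI libraries of this ratio lay below the WT libraries at PWK 7 (0.10 to 0.18 against 0.21 to 0.36) and just above them at PWK 14 (0.32 to 0.57 against 0.10 to 0.32) and PWK 28 (0.48 to 0.62 against 0.26 to 0.47). Log2 Gabra2 over Gabra5 in the hippocampus was 0.98 ± 0.21 in KI and 0.27 ± 0.16 in WT mice at PWK 14. At PWK 28 it was 0.69 ± 0.21 and 0.44 ± 0.044, and the lowest KI library, at 0.42, lay within the WT range. In the cortex the latter ratio overlapped between genotypes at each age.

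Markers of other cells moved in the same comparisons. Over all genes, 5.18% and 22.2% were called in the cortex at PWK 14 and 28, and 15.6% and 15.8% in the hippocampus. An unadjusted p under 0.05 was held by 3786 of 18367 and 6530 of 18387 genes in the cortex at these ages. In the hippocampus it was held by 5780 of 18405 and 5584 of 18389. In the hippocampus at PWK 14, 2 of 5 astrocyte markers were called, both higher, Gfap by 2.75 ± 0.32 (limma, adjusted p = 0.00129) and Aqp4 by 1.33 ± 0.37 (limma, adjusted p = 0.0376). These were 2.36 and 0.87 without KI replicate 1 (limma, adjusted p = 3.63e-06 and 8.77e-05), where Aldh1l1 was called as well (0.29, limma, adjusted p = 0.025). The median log2 fold change of the 5 was 0.55, and 0.29 without KI replicate 1. The summed astrocyte level was between 73320 and 192957 in KI and between 41003 and 45257 in WT libraries at PWK 14, and between 71271 and 82983 and between 42631 and 44272 at PWK 28. Of 4 CA1 pyramidal cell markers 2 (Fibcd1 and Pou3f1) were called lower at PWK 14, with a summed level between 12846 and 14779 in KI and between 16564 and 18241 in WT libraries, and Mpped1 joined them without KI replicate 1 (-0.25, limma, adjusted p = 0.0224). At PWK 28 that level was between 12727 and 15628 in KI and between 14822 and 16263 in WT libraries, with Wfs1 higher and Fibcd1 lower. Of 5 dentate granule cell markers 3 (Tdo2, Lct and Dsp) were called lower at PWK 14, with a summed level between 6593 and 10261 in KI and between 8755 and 13166 in WT libraries, while at PWK 28 C1ql2 was higher and Dsp lower. Of 5 excitatory neuron markers 1 was higher in the hippocampus at each of these ages, Neurod2 at PWK 14 and Slc17a7 at PWK 28, and without KI replicate 1 of PWK 14 Slc17a7 was also higher and Camk2a lower there. No oligodendrocyte or endothelial marker was called by limma in the hippocampus at these ages (at an unadjusted p under 0.05, 0 at PWK 14, and 3 of 5 and 1 of 3 at PWK 28). In the cortex at PWK 28 the summed level of 6 interneuron markers was between 11232 and 14549 in KI and between 9952 and 11147 in WT libraries, with Sst and Pvalb higher and Vip and Erbb4 lower. A sum follows its most abundant genes, and the median log2 fold change of these 6 markers was -0.12. At PWK 14 it was between 8887 and 9590 in KI and between 8330 and 9024 in WT libraries, with Sst higher and Vip lower. Of the astrocyte markers 3 of 5 were called in the cortex at each of these ages: Gfap higher (1.56 at PWK 14 and 1.52 at PWK 28) and Slc1a3 lower at both, Aldh1l1 higher at PWK 14 and Gja1 lower at PWK 28. Their summed level overlapped between genotypes, from 30517 to 39039 in KI and from 30639 to 35766 in WT libraries at PWK 14, and from 31930 to 40313 and from 30823 to 36559 at PWK 28. Of the excitatory neuron markers, Neurod2 was higher and Camk2a lower at both ages and Slc17a7 was higher at PWK 28, with a summed level from 180705 to 202681 in KI and from 207560 to 230612 in WT libraries at PWK 14, and from 159786 to 168464 and from 163431 to 177858 at PWK 28. Of the cortical projection neuron markers, Cux2 was higher and Fezf2 lower at both ages, with overlapping sums. Of 3 endothelial markers Flt1 and Cldn5 were lower in the cortex at PWK 14, with a summed level from 2110 to 2494 in KI and from 3158 to 3440 in WT libraries, and 0 were called at PWK 28 by limma (0 at an unadjusted p under 0.05). Without KI replicate 2 the counts of called markers of these 4 cell types and of interneurons in the cortex at PWK 28 were the same. Of 5 microglia markers, 0 were called by limma in the hippocampus at PWK 14 (0 at an unadjusted p under 0.05) and 3 were higher at PWK 28, where the summed level was between 8458 and 8890 in KI and between 6567 and 7680 in WT libraries. At PWK 14 that level was 13565 in KI replicate 1 and between 6019 and 8201 in the other KI libraries. The WT libraries were then between 5723 and 7248. The median log2 fold change of the 5 at PWK 14 was 0.34, and 0.01 without KI replicate 1. Of 6 pan-neuronal markers, 0 were called by limma in the hippocampus at these ages (2 and 1 at an unadjusted p under 0.05, summed level between 114130 and 126492 in KI and between 117681 and 123608 in WT libraries at PWK 14), and of 6 interneuron markers 0 were (3 and 1 at an unadjusted p under 0.05). In the cortex 1 pan-neuronal marker (Stmn2) and 1 microglia marker (Aif1) were higher at PWK 28. No marker of these lists was listed at 0. The part of these cell types in the subunit results was not tested, and in bulk tissue fewer cells of a type and less RNA per cell cannot be told apart.

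The 8 other subunit genes of the receptor family included Gabre, Gabrg1, Gabrg3, Gabrq and Gabrr2. In the genotype comparisons, 0 of the 8 were called by limma at PWK 1, at PWK 7 and in the cortex at PWK 14 (1 to 3 of them in each at an unadjusted p under 0.05). The share of all genes called was at most 0.0218% at PWK 1 and 7 and was 5.18% in the cortex at PWK 14. Between 965 and 1477 genes had an unadjusted p under 0.05 at PWK 1 and 7, and 3786 of 18367 in the cortex at PWK 14. Of the 8, 3 were called in the cortex at PWK 28 (background 22.2%), 1 in the hippocampus at PWK 14 (15.6%) and 1 there at PWK 28 (15.8%). Gabrg3, a gamma subunit, was at 1099, 1257, 1255 and 1296 in WT and at 2185, 1266, 2489 and 2174 in KI cortex at PWK 28 (0.68 ± 0.17, limma, adjusted p = 0.0191). KI replicate 2 was inside the WT range and the other 3 were well above it. Leaving out replicate 2, the KI library nearest to WT, widened the log2 fold change to 0.90 (limma, adjusted p = 5e-05). The count of 3 stayed, beside 27.7% of all genes. Gabre, the epsilon subunit, was close to the lower limit of the table, at 7.12 ± 3.70 in WT and 35.1 ± 16.2 in KI cortex at PWK 28 (2.16 ± 0.51, limma, adjusted p = 0.0138), and at 10.5 ± 5.64 and 25.8 ± 5.87 in the hippocampus at PWK 14 (1.30 ± 0.36, limma, adjusted p = 0.0375). Without KI replicate 1 of PWK 14 the hippocampal call of Gabre was lost (1.22, limma, adjusted p = 0.0603) and Gabrg1 was called lower (-0.36, limma, adjusted p = 0.0468).

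Genes that supply or remove GABA were also examined. Of 8 genes for its synthesis, release and uptake, 0 were called by limma at PWK 1 or PWK 7 (at an unadjusted p under 0.05, 1 in the hippocampus at PWK 7 and 0 in the others), 4 in the cortex at PWK 14 (3 higher, 1 lower), 5 there at PWK 28 (3 higher, 2 lower), 5 in the hippocampus at PWK 14 (1 higher, 4 lower) and 5 there at PWK 28 (4 higher, 1 lower). Over all genes, at most 0.0218% were called at PWK 1 and 7, and 1144 of 18390 in the hippocampus at PWK 7 had an unadjusted p under 0.05. At PWK 14 and 28 the shares were 5.18% and 22.2% in the cortex and 15.6% and 15.8% in the hippocampus. Gad2, which makes GABA, was higher in the KI cortex at PWK 14 (0.75 ± 0.15, limma, adjusted p = 0.0177) and PWK 28 (1.15 ± 0.18, limma, adjusted p = 0.00187), and in the KI hippocampus at PWK 14 (0.49 ± 0.076, limma, adjusted p = 0.00376) and PWK 28 (0.51 ± 0.069, limma, adjusted p = 0.000839). Slc32a1, the vesicular GABA transporter, was higher in the KI hippocampus at PWK 28 (0.72 ± 0.064, limma, adjusted p = 6.73e-05). Slc6a11, a GABA transporter of astrocytes, was lower there (-0.35 ± 0.050, limma, adjusted p = 0.00113). The median log2 fold change of the 8 was 0.09 and 0.11 in the cortex and -0.12 and 0.10 in the hippocampus, at PWK 14 first. The counts in the hippocampus at PWK 14 without KI replicate 1 were 2 higher and 3 lower, with Slc32a1 gained and Aldh5a1 lost, and the median was -0.04. Without KI replicate 2 those in the cortex at PWK 28 were 3 higher and 1 lower, with Slc6a11 lost.

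Among 14 measured genes of the inhibitory postsynapse, 1 was called in the cortex at PWK 14 (lower), 8 in the cortex at PWK 28 (6 higher, 2 lower), 4 in the hippocampus at PWK 14 (2 higher, 2 lower) and 5 at PWK 28 (3 higher, 2 lower), with medians of -0.01, 0.12, -0.04 and 0.08. The shares of all genes called in these comparisons were 5.18%, 22.2%, 15.6% and 15.8%, in the same order. The median in the hippocampus at PWK 14 was 0.04 without KI replicate 1, with the same counts, and without KI replicate 2 neuroligin 2 (Nlgn2) was also called in the cortex at PWK 28, for 7 higher and 2 lower. Mdga1, which restrains the adhesion molecule neuroligin 2, was lower in each of these, by -0.78, -1.41, -1.19 and -0.82. Shisa7, a GABA-A receptor auxiliary protein, was lower in the KI hippocampus at PWK 28 (-0.50 ± 0.045, limma, adjusted p = 6.6e-05). Insyn1, a protein of inhibitory synapses, was higher there (0.59 ± 0.044, limma, adjusted p = 2.32e-05). Of 5 genes of the GABA-B receptor, the slower metabotropic receptor, only Gabbr2 was called in these 4 comparisons, in the cortex at PWK 28 (0.40 ± 0.056, limma, adjusted p = 0.00104), where Kctd8 was also called without KI replicate 2 (-0.47, limma, adjusted p = 0.0395).

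Genes with the most similar course over the 16 groups were found by Pearson's r of log2 group means among 12332 protein-coding genes. These r are a description. The groups share the normalization and fall into few regions and ages, and genes are not independent. For Gabrd they were Camk2n1, an inhibitor of CaMKII (r = 0.987), and Hrasls (0.981), and for Gabra5 Igsf1 (0.983) and a gene annotated as Fam220a (0.981). For Gabra2 they were Cachd1 (0.994) and Lhx9 (0.988), for Gabra3 Lrrtm3 (0.981) and Dpp10 (0.978), and for Gabra4 Tmem132b (0.980) and Cdk17 (0.960). For Gabrb1 they were Kcna4 (0.973) and Mthfd1 (0.970), and for Gabrb2 Ankrd34c (0.960) and Fgf14 (0.960). Over the 8 WT groups alone, Cachd1 for Gabra2 and Ankrd34c for Gabrb2 were again among the nearest pair, and the other nearest genes were different. Camk2n1 in the hippocampus at PWK 14 was at 18389, 18229, 20352 and 20111 in WT mice and at 9820, 12176, 11450 and 15542 in KI mice, and its KI replicate 4 was the highest, as for Gabrd. Among the 7 genes themselves r over the 16 groups was highest for Gabra3 and Gabrb2 (0.89), Gabra2 and Gabra5 (0.86) and Gabra4 and Gabrd (0.84), and lowest for Gabra2 and Gabra3 (-0.91).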

How the data were processed

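RNA-seq libraries were analysed from the frontal cortex and hippocampus of KI and WT mice at 4 ages. Per the labels, libraries were made with a stranded TruSeq mRNA kit, whereas the published methods name a stranded total RNA kit. Which of these was used is not settled here. The authors quantified transcripts with Salmon on GRCm38 and scaled them with DESeq2 (Salmon 0.11.2, DESeq2 1.19.11 and R 3.6.0 in the submitters' processing notes), and the deposited table holds this normalized signal, estimated counts that are not whole, for 18432 genes. The published methods give other versions of these tools. Raw counts were not used here, so no count model was fitted and limma-trend, named in the plan for this case, took its place (limma 3.58.1, R 4.3.3) on log2(value + 1), for genes with a mean of at least 1 in the libraries compared. P-values were two-sided and Benjamini-Hochberg adjusted over all genes, with a threshold of 0.05. There were 22 comparisons. Each of the 8 genotype comparisons used only its own 4 KI and 4 WT libraries. The script was tested on simulated data. Labels give replicate numbers but do not say which libraries came from 1 mouse, so p-values measure the spread between libraries. Totals of 29.2 to 32.6 M reflect scaling, not depth.

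The 7 genes and all lists were chosen with earlier results of these data known. The naming rule covered the 7 genes, other family members called in a genotype comparison, at most 3 genes with the smallest p per list, and the 2 most similar genes over the 16 groups. Of the other family members, 3 are counted but not reported by name here. Gene models were matched for 18420 genes. Alternatives were a pseudocount of 10, no filter, a minimum mean of 100.0, total-sum scaling, sample weights, a correction for GC content and length, a fit of all 64 libraries, a replicate block and leaving out each library. Called markers beyond the rule, and genes of a list whose call changed without a library that stood apart, were named after their values were seen. Camk2n1 was given by library because it was the gene nearest to Gabrd.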

Additional observations from a re-analysis of the deposited data

Results flagged for a closer look

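Libraries far from the other 3 of their group, by Dixon's ratio, were found in 5 of 112 groups of gene, region, age and genotype, and chance gives about 1 in 20. They were Gabra2 in WT cortex at PWK 7 (replicate 1 at 4196 normalized counts, the others between 3361 and 3474), Gabra5 in WT cortex at PWK 1 (replicate 1 at 4227, the others between 4974 and 5107) and Gabrb1 in WT cortex at PWK 1 (replicate 3 at 5706, the others between 5015 and 5070). Gabrb2 in KI hippocampus at PWK 7 (replicate 2 at 3015, the others between 3612 and 3733) and Gabrd in WT cortex at PWK 7 (replicate 2 at 1551, the others between 1892 and 1960) were the other two.

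Genotype effects that differed between regions or ages by an interaction test (limma) were those of Gabra5 between regions at PWK 14 (-0.63, adjusted p = 0.0444), Gabra3 between regions at PWK 28 (0.38, adjusted p = 0.0433), and Gabra5 (-0.70, adjusted p = 0.00247), Gabrb1 (0.35, adjusted p = 0.026) and Gabrd (-0.92, adjusted p = 0.0461) between PWK 7 and PWK 14 in the hippocampus.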

How the results depend on the processing

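Of 2800 values of a subunit gene under an alternative setting or without a library, 2657 kept their side of the threshold, 122 lost a call and 21 gained one. Of these 2657, 2592 kept their direction and 65, uncalled in both fits, changed sign, and 0 called values did. Counts of called genes moved as follows. Sample quality weights gave 1 in place of 0 for KI against WT in the cortex at PWK 14 and for the change of the genotype effect from PWK 7 to 14 in the cortex. In the cortex at PWK 28 they lost Gabra2 and gained Gabrb2, so that the count stayed at 2. The GC and length correction gave 1 in place of 0 in the cortex at PWK 14, 1 in place of 2 in the cortex at PWK 28, 4 in place of 3 in the hippocampus at PWK 28, 4 in place of 6 for WT hippocampus from PWK 1 to 7 and from PWK 7 to 28, 6 in place of 7 for WT hippocampus against cortex at PWK 1 and 0 in place of 1 for the regional difference of the effect at PWK 28. No filter gave 1 in place of 2 in the cortex at PWK 28, where the adjusted p of Gabra2 by limma was 0.0503. Total-sum scaling gave 3 in place of 2 there and 4 in place of 6 for WT hippocampus from PWK 7 to 28. The fit of all 64 libraries gave 4 in place of 3 for KI against WT in the hippocampus at PWK 14, 6 in place of 7 for WT cortex and 4 in place of 6 for WT hippocampus from PWK 1 to 7, 6 in place of 7 for WT hippocampus against cortex at PWK 1, 3 in place of 6 for WT hippocampus from PWK 7 to 28, 2 in place of 1 and 0 in place of 1 for the regional differences at PWK 14 and 28, and 1 in place of 0 for the hippocampal effect from PWK 14 to 28. The other 2 settings, a pseudocount of 10 and a minimum mean of 100, moved no count. The cause was not tested.

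Without 1 library, the counts ranged from 0 to 1 (cortex, PWK 14), 1 to 2 (cortex, PWK 28), 1 to 3 (hippocampus, PWK 14) and 2 to 5 (hippocampus, PWK 28). With all libraries, the shares of all genes called were 5.18%, 22.2%, 15.6% and 15.8%, in the same order. For the WT age comparisons the counts ranged from 1 to 2 (cortex, PWK 7 to 28) and 2 to 5 (hippocampus, PWK 7 to 28). The regional differences ranged from 0 to 2 at both ages, and the age differences of the effect from 0 to 1 (cortex, PWK 7 to 14; hippocampus, PWK 14 to 28) and 1 to 3 (hippocampus, PWK 7 to 14).

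Equal replicate numbers did not meet the rule for pairing: cortical and hippocampal libraries of equal number correlated in their deviations from the group means by -0.073 to 0.462, with 17 of 32 pairs over 0.1, and KI and WT libraries of equal number with 10 of 32 pairs over 0.1. Between regions the mean r was 0.140 for equal and -0.046 for different numbers. Shared mice are therefore not excluded, and the main tests between regions treated all libraries as independent. With replicate number as a block, the count for WT hippocampus from PWK 7 to 28 was 3, that for KI against WT in the hippocampus at PWK 14 was 2, where Gabrb1 was not called (limma, adjusted p = 0.119), and the regional difference of Gabra5 at PWK 14 was not called (limma, adjusted p = 0.0649). The block also gave 5 in place of 6 for WT hippocampus from PWK 1 to 7 and brought the regional difference of Gabrd at PWK 14 past the threshold, and it changed no other call of the 7 genes.

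Over all genes, the fit of all 64 libraries called 1946 in place of 951 genes for KI against WT in the cortex at PWK 14, 6050 in place of 2870 in the hippocampus at PWK 14, 2000 in place of 525 and 1320 in place of 841 for the regional differences at PWK 14 and 28, 3081 in place of 1899 for the hippocampal effect from PWK 7 to 14, and 913 and 469 in place of 0 for the effects from PWK 14 to 28 in cortex and hippocampus, where total-sum scaling gave 9 and the block 2. The block called 1788 in the hippocampus at PWK 14. For KI against WT at PWK 1 and 7 each of these fits called at most 5. Read depth is unknown after scaling and limits weakly expressed genes such as Gabre.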
